A study of Mus musculus with 2 samples.

Results

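The mitochondrial ribosomal protein genes are the nuclear genes for the proteins of the mitochondrial ribosome. They were compared here between a pair of mouse acute promyelocytic leukaemias, called APL#2 and APL#1. They were taken as every row of the deposited gene table whose symbol starts with Mrpl or Mrps followed by a digit, which gave 76 genes of the 23235 listed. Of these 76 genes, 49 encode proteins of the large subunit and 26 proteins of the small subunit, and Mrps36 was put in neither, because its product is now placed in the 2-oxoglutarate dehydrogenase complex. APL is a myeloid leukaemia with a block at the promyelocyte stage, driven by the PML-RAR fusion protein. Both leukaemias arose in C57BL/6-Ly5.2 mice that the labels name both as mCG-PML-RAR transgenic and as PML-RAR KI, and the sources used here do not settle which. Leukaemic cells carrying CD45.2 were grown in CD45.1+ C57BL/6-Ly5.1 recipients that had not been irradiated, so the hosts kept their own blood cells. The graft was 200000 cells for APL#2 and 2000000 cells for APL#1, so that cell dose and leukaemia cannot be told apart. CD45.2+ cells were purified from the spleens on immunomagnetic columns. Both samples are labelled as untreated and as 10 weeks old, although their titles carry the letters VEH. The series describes the leukaemias as clones with unlike frequencies of leukaemia-initiating cells; the labels do not say which clone has more. Each leukaemia is 1 library, so differences between them lack a replicate check and no test was run.

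Mitochondria translate their own messages on their own ribosomes. The RNA of these ribosomes is transcribed from mitochondrial DNA, whereas all of their proteins are made in the cytosol from nuclear genes and imported. The products of this translation in mammals are core subunits of the respiratory chain and of ATP synthase, and some acute myeloid leukaemias are known to be sensitive to inhibitors of mitochondrial translation. Some of the proteins have counterparts in bacterial ribosomes and others were acquired in the mitochondrial lineage.

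The mitochondrial ribosomal protein genes were all detected, mostly at a few FPKM or less in both leukaemias, and most had a lower value in APL#2. Levels are in FPKM, the number of sequenced fragments scaled to transcript length and to library size, so they can be compared between genes. The 76 genes summed to 158.1 FPKM in APL#2, against 191.1 FPKM in APL#1, a ratio of 0.828. That was 0.449% of all FPKM in APL#2 and 0.548% in APL#1. The median gene of the set had 1.22 FPKM in APL#2 and 1.55 FPKM in APL#1, well above the median of all listed genes, 0.0243 FPKM in APL#2 and 0.0192 FPKM in APL#1. None was listed at 0 in either library, and levels ran between 0.0968 and 24.4 FPKM in APL#2 and between 0.150 and 20.5 FPKM in APL#1. Fewer cells of a type and less RNA per cell cannot be told apart in such bulk values.

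The lower sum has to be set against the rest of the table, because most genes were lower in APL#2. Genes with a mean of at least 1 FPKM over both libraries are called measured; 4100 genes of the table (17.6%) and 54 of the 76 members (71.1%) passed, and 22 members did not. The measured members had a median of 1.63 FPKM in APL#2 and 1.89 FPKM in APL#1, against 1.83 FPKM in APL#2 and 2.16 FPKM in APL#1 for all measured genes. Of the 54 measured members, 44 had the lower FPKM in APL#2 and 10 the higher, where 71.6% of all measured genes were lower. Differences are given as the log2 value of APL#2 minus that of APL#1, each taken as log2(FPKM + 1), which understates the difference of genes with low values. All measured genes had a median difference of -0.17 on this scale, and that median was subtracted from each gene's difference to give the relative difference. After this, 30 measured members lay below the median of all measured genes, where 50.0% of all measured genes lie by construction, and 24 lay above it. The median relative difference of the measured members was -0.06, with quartiles of -0.24 and 0.07, against quartiles of -0.19 and 0.22 over all measured genes. Within 0.25 of the all-gene median lay 61.1% of the measured members and 58.0% of all measured genes.

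**Figure D1:**
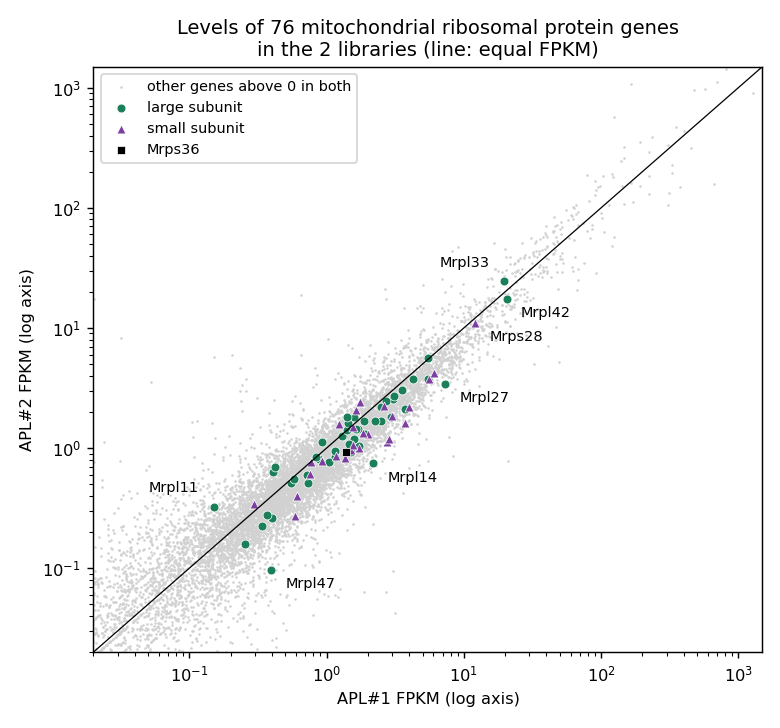
FPKM of each mitochondrial ribosomal protein gene in APL#2 (vertical log axis) against APL#1 (horizontal log axis), with large-subunit genes as circles, small-subunit genes as triangles, Mrps36 as a square, all other genes above 0 in both libraries in grey and a line of equal FPKM. Mrpl33, Mrpl42 and Mrps28 stand above the other members in both libraries, and 61 of the 76 members lie under the line.

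Few members differed by as much as 2-fold, and how many did depends on the scale. With a log2(FPKM + 1) difference of at least 2-fold, 0 members were higher in APL#2, where 2.10% of measured genes were, and 0 were lower, where 2.44% were. By the plain ratio of FPKM, 5 measured members (9.26%) had 0.5 or less of their APL#1 level in APL#2, where 6.83% of measured genes did, and 0 had a ratio of 2 or more, where 3.39% did. In the authors' deposited table, 0 of the 76 members had a p-value of 0.05 or less, where 0.968% of all genes did. The lowest p-values of members in the authors' deposited table were 0.165 for Mrpl47, 0.202 for Mrpl14 and 0.207 for Mrps5, and the lowest q-value was 0.999997.

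**Figure D2:**
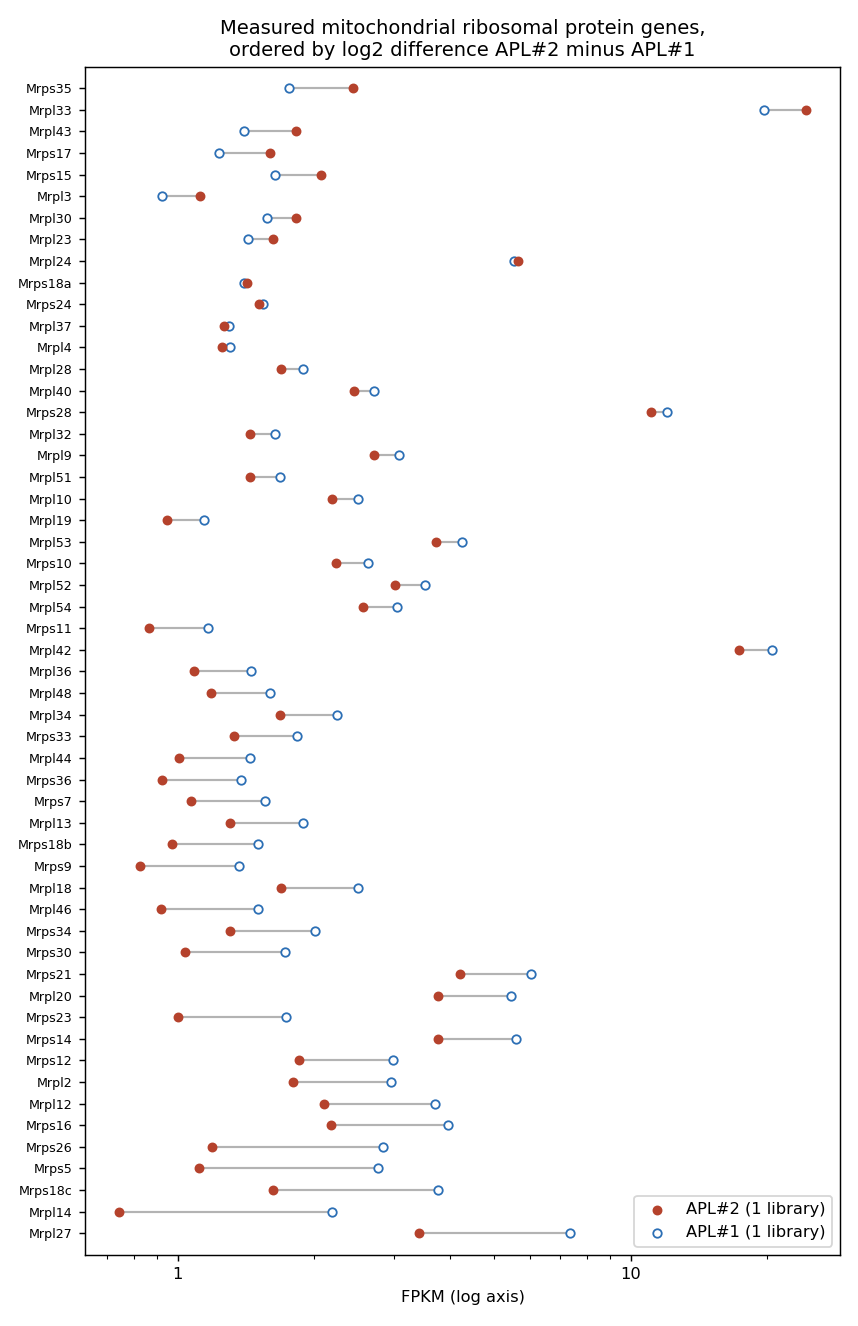
FPKM (horizontal log axis) of the 54 measured members in APL#2 (filled points) and APL#1 (open points), 1 library each, with genes ordered down the page by their log2 difference. The filled point lies left of the open point in 44 genes, and the widest gaps are at the foot of the plot, from Mrpl27 to Mrpl2.

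The levels were held up by few genes. Mrpl33, whose product is a small protein of the large subunit with a bacterial counterpart, had 24.4 FPKM in APL#2 and 19.7 FPKM in APL#1. Mrpl42, a large-subunit protein without a bacterial counterpart, had 17.4 FPKM in APL#2 and 20.5 FPKM in APL#1. Mrps28, of the small subunit, had 11.1 FPKM in APL#2 and 12.01 FPKM in APL#1. These 3 genes held 33.4% of the summed FPKM of the set in APL#2 and 27.3% in APL#1. Their places among themselves were not the same in both libraries, as Mrpl33 was highest in APL#2 and Mrpl42 in APL#1. The typical transcripts of Mrpl33, Mrpl42 and Mrps28 are short, at 0.48, 0.66 and 0.78 kb, against a median of 1.22 kb over members. Whether transcript length bears on these levels was not tested. The next genes by mean level were Mrpl24 (5.64 FPKM in APL#2, 5.52 FPKM in APL#1), Mrpl27 and Mrps21 (4.21 FPKM in APL#2, 6.02 FPKM in APL#1). Without the 3 highest genes the set summed to 105.3 FPKM in APL#2 and 138.8 FPKM in APL#1.

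Below these, the proteins of 1 particle had mRNA levels that spread over a wide range. Under 1 FPKM were 29 members in APL#2 and 21 in APL#1; between 1 and 5 FPKM were 43 in APL#2 and 47 in APL#1; and at 5 FPKM or more were 4 in APL#2 and 8 in APL#1. The order of the genes was much the same in both libraries. Across the 76 members, log2(FPKM + 1) gave a Pearson's r of 0.95 and a Spearman's rho of 0.91 between the libraries, as a description over genes, which are not independent replicates. Across all measured genes the values were 0.83 and 0.77. That set leaves out genes with a mean under 1 FPKM, whereas the 76 members include 22 such genes, so the values cannot be compared.

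In the large subunit, differences balanced out. Of 33 measured large-subunit genes, 15 were under the all-gene median difference and 18 above it, with a median relative difference of 0.02 and quartiles of -0.16 and 0.14. The sign of that median is not firm, as the mean was -0.03. With no filter on level the median was -0.09, but against another reference. That reference was the median of 12226 genes above 0 in both libraries, not of the 4100 measured genes. This change of reference alone moved Mrpl51 from 0.04 to -0.09. Without subtracting the all-gene median of -0.17 the large-subunit median was -0.15, which is not a relative difference. The 49 genes summed to 109.8 FPKM in APL#2 and 125.9 FPKM in APL#1. In the small subunit more genes lay low. Of 20 measured small-subunit genes, 14 were under the all-gene median and 6 above it, with a median of -0.19 and quartiles of -0.30 and 0.02. The 26 genes summed to 47.4 FPKM in APL#2 and 63.8 FPKM in APL#1. The quartile ranges of the subunits overlap, and with 1 library per leukaemia the gap between their medians, -0.21 for small minus large, was not tested. By descent the medians lay close: the 36 measured genes with a bacterial counterpart had a median of -0.05 and the 18 without one a median of -0.07.

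Among large-subunit genes with the lowest relative differences, Mrpl27 stood first. Its product is the counterpart of a bacterial protein that reaches towards the peptidyl transferase centre, where peptide bonds are made. Mrpl27 had 3.41 FPKM in APL#2 and 7.34 FPKM in APL#1, a relative difference of -0.75. Mrpl14 had 0.744 FPKM in APL#2 and 2.19 FPKM in APL#1, a relative difference of -0.70; its product lies on the face that meets the small subunit. Mrpl12 had 2.10 FPKM in APL#2 and 3.71 FPKM in APL#1, a relative difference of -0.43. Its product forms the stalk that recruits translation factors and has also been described as a partner of mitochondrial RNA polymerase. Mrpl2, whose product helps to build the catalytic core, had 1.80 FPKM in APL#2 and 2.96 FPKM in APL#1, a relative difference of -0.33. These 4 genes were lower in the APL#2 library, and Mrpl27 and Mrpl14 by plain ratios of 2.15-fold and 2.94-fold.

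At the other end of the large subunit, 5 genes were among the 8 measured members with the highest relative differences. That is close to the share of the large subunit, which has 33 of the 54 measured members. Mrpl33 had a relative difference of 0.46 at the levels given above. Mrpl43, which has no bacterial counterpart, had 1.83 FPKM in APL#2 and 1.40 FPKM in APL#1, a relative difference of 0.41. Mrpl3 had 1.12 FPKM in APL#2 and 0.922 FPKM in APL#1 (relative difference 0.31), and Mrpl30 had 1.82 FPKM in APL#2 and 1.58 FPKM in APL#1 (0.30). Mrpl23, whose product lies near the exit of the peptide tunnel, had 1.62 FPKM in APL#2 and 1.43 FPKM in APL#1 (0.28). All 5 were higher in APL#2 in plain FPKM too, by ratios of 1.13 to 1.30.

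Small-subunit genes took 4 of the 8 lowest places among measured members, where they are 20 of the 54 measured members. Mrps18c had 1.63 FPKM in APL#2 and 3.75 FPKM in APL#1, a relative difference of -0.68. Mrps5 had 1.12 FPKM in APL#2 and 2.77 FPKM in APL#1 (-0.66), and Mrps26, which has no bacterial counterpart, had 1.19 FPKM in APL#2 and 2.84 FPKM in APL#1 (-0.63). Mrps16 had 2.19 FPKM in APL#2 and 3.96 FPKM in APL#1 (-0.47). Mrps18c, Mrps5 and Mrps26 had a higher value in APL#1 by plain ratios of 2.31, 2.48 and 2.38. Mrps5 and Mrps26 lie in the chromosome 2 stretch described below, where 71 of 72 measured genes were under the all-gene median difference. The small-subunit genes with the highest relative differences were Mrps35 (2.44 FPKM in APL#2, 1.76 FPKM in APL#1, relative difference 0.49), Mrps17 (1.60 FPKM in APL#2, 1.23 FPKM in APL#1, 0.39) and Mrps15 (2.07 FPKM in APL#2, 1.64 FPKM in APL#1, 0.39). Mrps17 and Mrps15 encode counterparts of bacterial proteins that bind the small-subunit RNA, and Mrps35 encodes a mitochondrial addition.

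The 3 Mrps18 paralogues are counterparts of 1 bacterial small-subunit protein. Their products do not share a place: Mrps18c and Mrps18b belong to the small subunit, and the Mrps18a product sits in the large subunit. Mrps18c, given above, was lower in APL#2. Mrps18b had 0.971 FPKM in APL#2 and 1.50 FPKM in APL#1, a relative difference of -0.17. Mrps18a had 1.42 FPKM in APL#2 and 1.40 FPKM in APL#1, a relative difference of 0.18, and was close to level in plain FPKM. Their values were not tested against each other.

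Depth limits what single genes can show. From the spacing of the low values, a gene at 1 FPKM with a transcript 1 kb long was estimated to rest on 55.6 fragments in APL#2 and 51.4 in APL#1. This estimate is uncertain, because the listed genes would hold 3.52% of the total used for scaling in APL#2 and 3.49% in APL#1 if each had a transcript of 1 kb. The labels do not say where the remaining fragments lie. At that level the counting error was 13.4% in APL#2 and 13.9% in APL#1, and a 95% interval for counting error alone would widen a ratio by a factor of 1.46 either way; at 5 FPKM the factor was 1.18. The median transcript length of members was 1.22 kb, and 28 of the 76 had a typical transcript under 1 kb, where the error is wider. Among members that were not measured, Mrpl47 had 0.0968 FPKM in APL#2 and 0.393 FPKM in APL#1, the lowest p of the set in the authors' deposited table. Its plain ratio, 4.06-fold lower in APL#2, was also the widest of the set, at a level where the pseudocount shrinks the relative difference to -0.17. Mrps22 was 2.16-fold lower by plain ratio (0.272 FPKM in APL#2, 0.588 FPKM in APL#1). In the other direction, Mrpl11, a stalk-base protein gene on chromosome 19, was 2.17-fold higher by plain ratio (0.326 FPKM in APL#2, 0.150 FPKM in APL#1). Mrps22 and Mrpl11 are named after their values were seen, and both lie where few fragments were counted.

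**Figure D3:**
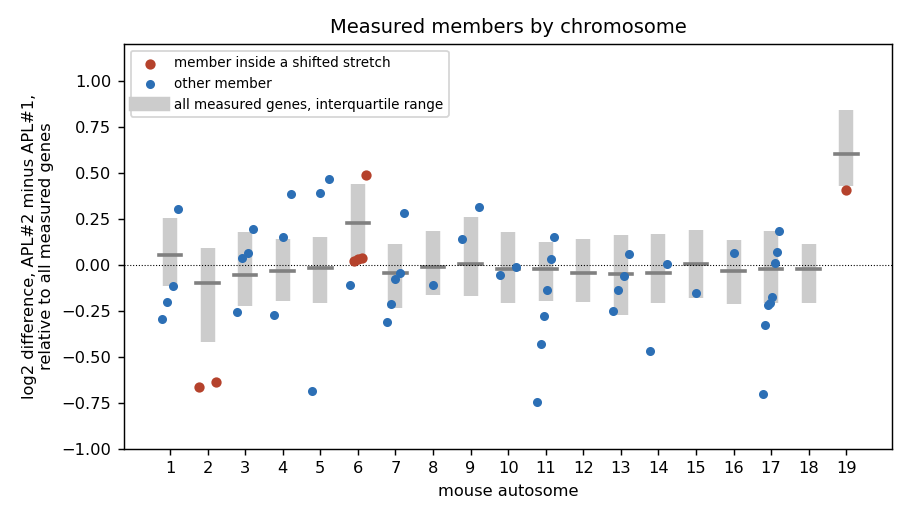
Relative log2 difference (vertical axis, APL#2 minus APL#1) of the 54 measured members by mouse autosome, with members in the chromosome 2, 6 and 19 stretches in red, other members in blue, and the interquartile range (grey bar) and median (grey line) of all measured genes on each autosome. The 2 members on chromosome 2 lie at -0.66 and -0.63, below the grey bar of their chromosome, and other members with low values lie on chromosomes 5, 11, 14 and 17.

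Members lie on 17 chromosomes, with at most 10 on one. In 3 parts of the genome, genes of all kinds differed together between these libraries: chromosome 2 between Psmd14 and 1110034G24Rik, chromosome 6 between Capg and Far2, and all of chromosome 19. The stretches were found from these same differences, so what members in them do is no independent evidence. In the chromosome 2 stretch, 72 measured genes had a median relative difference of -0.60, and Mrps5 and Mrps26 were close to it. Ptpra, which is listed next to Mrps26 and is named here after its values were seen, had 1.17 FPKM in APL#2 and 2.75 FPKM in APL#1. In the chromosome 19 stretch, 134 measured genes had a median of 0.60, and Mrpl43, the 1 measured member there, lay below that at 0.41. In the chromosome 6 stretch, 153 measured genes had a median of 0.30. Mrps35 was above it, while Mrpl53 (3.73 FPKM in APL#2, 4.24 FPKM in APL#1, relative difference 0.02), Mrpl19 (0.948 FPKM in APL#2, 1.14 FPKM in APL#1, 0.03) and Mrpl51 (1.44 FPKM in APL#2, 1.68 FPKM in APL#1, 0.04) lay below it and were lower in APL#2 in plain FPKM. Outside the stretches, 47 measured members had a median of -0.08, beside -0.02 for 3741 measured genes there.

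Promoters of the members are shown here because the set shares sequence features that played no part in choosing it. Windows of 300 bases, 250 before to 50 after the annotated start, came from RefSeq (GRCm38.p6, mouse), and 67 of the 76 members matched, with 73 windows. The 6 windows below belong to Mrpl27 (the member with the lowest relative difference, chr11:94653541-94653840, plus strand), Mrpl33 and Mrpl42 (the highest levels, chr5:31613701-31614000, plus strand, and chr10:95501900-95502199, minus strand), Mrpl12 (chr11:120484387-120484686, plus strand), Mrpl43 (chr19:45006393-45006692, minus strand) and Mrps11 (chr7:78782881-78783180, plus strand). Capitals mark the ETS-family motif CCGGAAG bound by GABP, the NRF1 motif (GCGC, any base, then TGCGC) and the YY1 motif AAGATGG, on either strand, so that a match on the other strand reads as its reverse complement.
Mrpl27: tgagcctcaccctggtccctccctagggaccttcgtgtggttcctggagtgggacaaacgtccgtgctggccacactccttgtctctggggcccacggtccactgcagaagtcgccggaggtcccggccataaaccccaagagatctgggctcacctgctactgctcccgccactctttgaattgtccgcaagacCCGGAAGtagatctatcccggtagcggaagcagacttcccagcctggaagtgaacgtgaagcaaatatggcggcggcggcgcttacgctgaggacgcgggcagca
Mrpl33: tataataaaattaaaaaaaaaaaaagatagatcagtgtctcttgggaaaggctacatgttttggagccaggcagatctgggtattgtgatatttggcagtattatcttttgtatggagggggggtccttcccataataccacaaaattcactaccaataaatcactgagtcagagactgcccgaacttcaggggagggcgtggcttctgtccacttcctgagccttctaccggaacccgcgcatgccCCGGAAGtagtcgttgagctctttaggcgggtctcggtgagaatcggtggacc
Mrpl42: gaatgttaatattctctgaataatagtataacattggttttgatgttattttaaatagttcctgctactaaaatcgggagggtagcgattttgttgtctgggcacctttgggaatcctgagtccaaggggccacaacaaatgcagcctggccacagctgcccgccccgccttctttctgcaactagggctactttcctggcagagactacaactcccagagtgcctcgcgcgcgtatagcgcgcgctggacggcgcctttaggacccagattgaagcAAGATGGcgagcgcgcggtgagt
Mrpl12: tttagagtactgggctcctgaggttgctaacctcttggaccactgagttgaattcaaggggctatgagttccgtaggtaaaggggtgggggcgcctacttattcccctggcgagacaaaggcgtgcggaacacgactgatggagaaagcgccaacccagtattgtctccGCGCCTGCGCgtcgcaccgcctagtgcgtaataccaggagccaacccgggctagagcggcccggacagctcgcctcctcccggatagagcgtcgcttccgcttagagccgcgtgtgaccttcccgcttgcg
Mrpl43: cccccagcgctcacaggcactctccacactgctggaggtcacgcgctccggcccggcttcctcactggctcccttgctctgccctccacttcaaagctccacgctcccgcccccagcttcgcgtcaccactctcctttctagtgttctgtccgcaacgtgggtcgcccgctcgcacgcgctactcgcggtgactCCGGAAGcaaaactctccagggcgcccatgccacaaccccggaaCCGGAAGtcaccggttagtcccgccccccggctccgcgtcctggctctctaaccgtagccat
Mrps11: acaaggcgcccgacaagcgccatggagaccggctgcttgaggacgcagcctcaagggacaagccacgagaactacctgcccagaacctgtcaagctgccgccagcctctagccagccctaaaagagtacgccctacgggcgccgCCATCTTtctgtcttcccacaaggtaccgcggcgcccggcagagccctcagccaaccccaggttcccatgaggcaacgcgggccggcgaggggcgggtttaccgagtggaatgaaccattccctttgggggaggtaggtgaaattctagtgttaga

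GABP, NRF1 and YY1 are transcription factors known for binding promoters of nuclear genes for mitochondrial proteins. Mrpl27 and Mrpl33 each show 1 ETS motif and Mrpl43 shows 2. Mrpl12 shows the NRF1 motif, and Mrpl42 and Mrps11 show the YY1 motif, in Mrps11 on the opposite strand. The Mrps11 window also holds the start of Mrpl46, 42 bases away on that opposite strand. In the same way, the Mrpl27 window holds the start of Eme1, 48 bases away, and the Mrpl43 window that of Twnk, 116 bases away. Matches in these windows cannot be credited to Mrps11, Mrpl27 or Mrpl43 alone. The ETS motif occurred in 32.9% of member windows, against 11.6% of 21254 windows of all protein-coding genes. The NRF1 motif occurred in 16.4% of member windows and 6.38% of all windows, and the YY1 motif in 17.8% of member windows and 6.24% of all windows. At least 1 of the 3 motifs was present in 56.2% of member windows and 21.7% of all windows, and 41 members had one. The other 26 matched members had none, whereas every window printed above holds one, so those windows do not stand for the whole set. Member windows were richer in CpG, with a median of 21 CpG per window, against 13 in all windows. Set beside the 5561 windows whose CpG count lay within the members' quartiles (15 to 26), the shares were nearer: 20.4% of those held the ETS motif, 10.1% the NRF1 motif, 7.64% the YY1 motif and 33.5% at least 1 of them.

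**Figure D4:**
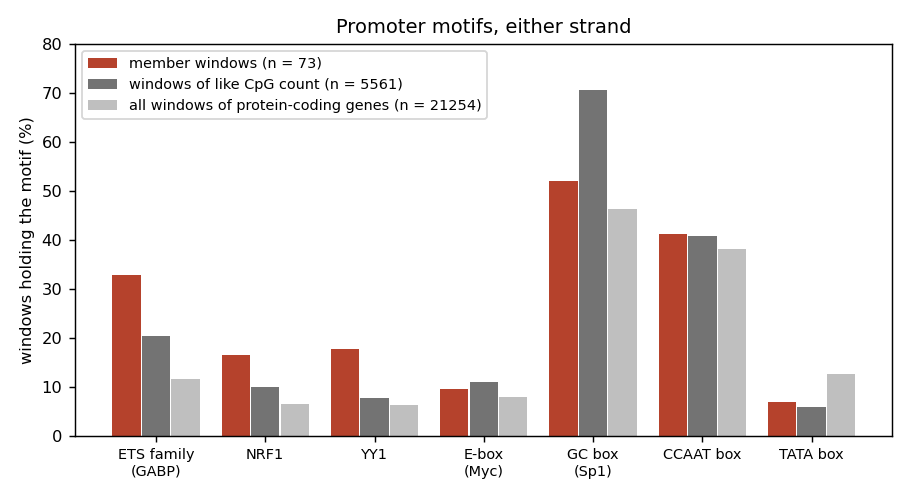
Share of 300-base promoter windows (vertical axis, percent) that hold each of 7 motifs on either strand, for 73 member windows, 5561 windows of like CpG count and 21254 windows of all protein-coding genes. The red bars stand above both grey bars for ETS, NRF1 and YY1, and for the GC box the windows of like CpG count stand higher at 70.6%, against 52.1% of member windows.

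For other common promoter motifs, member windows lay nearer to all windows. The E-box CACGTG, bound by Myc, occurred in 9.59% of member windows and 7.84% of all windows, the GC box GGGCGG, bound by Sp1, in 52.1% of member windows and 46.2% of all windows, and the CCAAT box in 41.1% of member windows and 38.2% of all windows. The TATA box TATAAA occurred in 6.85% of member windows and 12.6% of all windows. Beside windows of like CpG count the picture differs: 70.6% of those held the GC box, the widest gap of the 7 motifs, 10.99% the E-box, 40.8% the CCAAT box and 5.79% the TATA box. No motif is contained in another; ETS and YY1 matches can share the bases AAG, and did so in 0 of the 73 member windows. Members with and without a motif overlapped in their differences between the leukaemias. Measured members with an ETS motif had a median relative difference of -0.11 (19 genes), beside -0.05 without one (28 genes). With the NRF1 motif the median was -0.20 (9 genes), beside -0.06 without it (38 genes), and with the YY1 motif it was -0.02 (10 genes), beside -0.11 without it (37 genes). A match is a description of the letters in the window and not a bound site.

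The mRNAs of the factors themselves were low. Gabpa, which encodes the DNA-binding subunit of GABP, had 0.449 FPKM in APL#2 and 0.557 FPKM in APL#1, and its partner Gabpb1 had 0.401 FPKM in APL#2 and 0.907 FPKM in APL#1. Nrf1 had 0.718 FPKM in APL#2 and 0.940 FPKM in APL#1, and Yy1 had 2.36 FPKM in APL#2 and 3.44 FPKM in APL#1. All 4 were lower in APL#2 in plain FPKM. Of all listed genes, 8560 were lower in APL#2 and 5502 higher. Yy1 alone was measured, and 71.6% of measured genes were lower. Relative to the all-gene median Gabpa was at 0.07 and Nrf1 at -0.0036, and Gabpb1, at -0.27, lies in the chromosome 2 stretch described above. At such low levels the pseudocount shrinks the difference, and subtracting the negative all-gene median then lifts it. By plain ratio Gabpa was at 0.805 and Nrf1 at 0.764, both below the median ratio of 0.833 over all measured genes. Gabpa, Gabpb1 and Nrf1 are named after their values were seen.

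Many members share a promoter region with a gene that runs the other way. In the RefSeq annotation, 23 of the 67 matched members (34.3%) had a protein-coding gene starting on the opposite strand within 1 kb upstream, against 8.48% of 17485 genes with a window. These made 22 pairs, with a median of 144 bases between the starts. In 14 pairs both genes were lower in APL#2, in 2 both were higher, and in 6 they went opposite ways. Of 626 such pairs across all genes with values above 0, both genes were lower in 53.4%, beside 63.6% of the members' pairs. The pairs described next were chosen after their values were seen. Mrpl46 and Mrps11, a large-subunit and a small-subunit gene, start 42 bases apart: Mrpl46 had 0.921 FPKM in APL#2 and 1.50 FPKM in APL#1, and Mrps11 had 0.867 FPKM in APL#2 and 1.17 FPKM in APL#1. Mrpl27 starts 48 bases from Eme1, a gene for a DNA repair endonuclease, which had 0.292 FPKM in APL#2 and 0.655 FPKM in APL#1, so both genes of that pair were lower in APL#2.

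Other pairs join mitochondrial genes. Mrpl43 starts 116 bases from Twnk, the gene of the mitochondrial DNA helicase, listed in the table under its older symbol Peo1, which had 0.507 FPKM in APL#2 and 0.266 FPKM in APL#1; both lie on chromosome 19 and both were higher in APL#2. Mrps12 starts 147 bases from Sars2, a mitochondrial tRNA synthetase gene. Mrps12 had 1.85 FPKM in APL#2 and 2.99 FPKM in APL#1, and Sars2 had 0.673 FPKM in APL#2 and 0.851 FPKM in APL#1. A pair can also part. Mrpl49, on chromosome 19, had 0.596 FPKM in APL#2 and 0.726 FPKM in APL#1, while Fau, a cytosolic ribosomal protein gene that starts 192 bases away, had 45.5 FPKM in APL#2 and 19.9 FPKM in APL#1. Mrpl14, whose values are given above, starts 131 bases from Tmem63b, which had 0.416 FPKM in APL#2 and 0.415 FPKM in APL#1.

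Genes of related machinery give the setting. The mitoribosomal proteins that carry other names summed to 8.20 FPKM in APL#2 and 10.0 FPKM in APL#1 over 7 genes, a ratio of 0.818, beside 0.828 for the members and a median ratio of 0.833 over all measured genes. Of these, 4 were measured, with a median relative difference of -0.04, from Ict1 (1.16 FPKM in APL#2, 1.68 FPKM in APL#1), which encodes a peptide-release protein built into the large subunit, to Aurkaip1 (2.28 FPKM in APL#2, 2.47 FPKM in APL#1). Genes for mitoribosome assembly were mostly under 1 FPKM, with 4 of 24 measured, from Mpv17l2 (0.624 FPKM in APL#2, 1.44 FPKM in APL#1) to Mettl17 (1.37 FPKM in APL#2, 1.10 FPKM in APL#1). Of 17 mitochondrial translation factors 3 were measured, all with the lower FPKM in APL#2, as 71.6% of measured genes were, at relative differences of -0.14, -0.07 and 0.09, with Ict1 the lowest and Oxa1l, an inserter of membrane proteins, the highest (1.47 FPKM in APL#2, 1.62 FPKM in APL#1). Of 17 mitochondrial tRNA synthetases 4 were measured. Lars2, for leucine, had 5.48 FPKM in APL#2 and 18.1 FPKM in APL#1 and was the 1 measured gene of these 5 lists to be lower by 2-fold or more in log2(FPKM + 1), where 2.44% of measured genes were; by plain ratio Mpv17l2 was 2.31-fold lower too. At the other end, Cars2, the synthetase for cysteine, had 1.36 FPKM in APL#2 and 1.53 FPKM in APL#1. Of 25 genes for mitochondrial transcription and RNA processing 5 were measured, from Yy1 to Tfb2m (1.33 FPKM in APL#2, 1.18 FPKM in APL#1), a transcription initiation factor.

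The genes for ribosomal proteins of the cytosol, which build the ribosomes that translate nuclear messages, lay higher in APL#2. The 77 measured cytosolic ribosomal protein genes had a median relative difference of 0.68, with 2 below the all-gene median and 75 above it, and the list of 78 genes summed to 8037 FPKM in APL#2 and 5248 FPKM in APL#1. On the log2(FPKM + 1) scale, 3 of them were at least 2-fold higher, where 2.10% of measured genes were: Rpl32 on chromosome 6, inside its stretch (187.8 FPKM in APL#2, 78.4 FPKM in APL#1), Fau on chromosome 19 and Rps12 (965.4 FPKM in APL#2, 478.2 FPKM in APL#1). By plain ratio there were 4, with Rpl35 (3.97 FPKM in APL#2, 1.62 FPKM in APL#1), beside 3.39% of measured genes. At least 2-fold lower on either scale was Rps27 (0.784 FPKM in APL#2, 20.9 FPKM in APL#1). The measured members' highest relative difference, 0.49, lay below that list's median. The nuclear-encoded subunits of the respiratory chain and ATP synthase lay on the other side, with a median of -0.25 over 72 measured genes, 61 of them below the all-gene median, and a sum of 430.6 FPKM in APL#2 and 598.0 FPKM in APL#1. In log2(FPKM + 1), 3 of them were lower by 2-fold or more, where 2.44% of measured genes were: Atp5g3, inside the chromosome 2 stretch (5.82 FPKM in APL#2, 16.3 FPKM in APL#1), Ndufa1 (21.1 FPKM in APL#2, 48.3 FPKM in APL#1) and Uqcr11 (6.26 FPKM in APL#2, 14.8 FPKM in APL#1). By plain ratio 8 had 0.5 or less of their APL#1 level, where 6.83% of measured genes did; the others were Ndufc1, Ndufb5, Ndufb4, Ndufs3 and Ndufs6. Cox8a, on chromosome 19, had the highest relative difference of the measured genes (50.5 FPKM in APL#2, 26.5 FPKM in APL#1). Ndufs5, which was not measured, lay higher still at 1.74 (1.97 FPKM in APL#2, 5.86e-05 FPKM in APL#1). The median of the small subunit, -0.19, lay nearer to that of the respiratory chain, and the median of the large subunit nearer to that of all genes; these gaps between lists were not tested. The table has 0 rows on the mitochondrial chromosome, so the mitochondrial rRNAs and the mitochondrially encoded subunits were not analysed here.

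**Figure D5:**
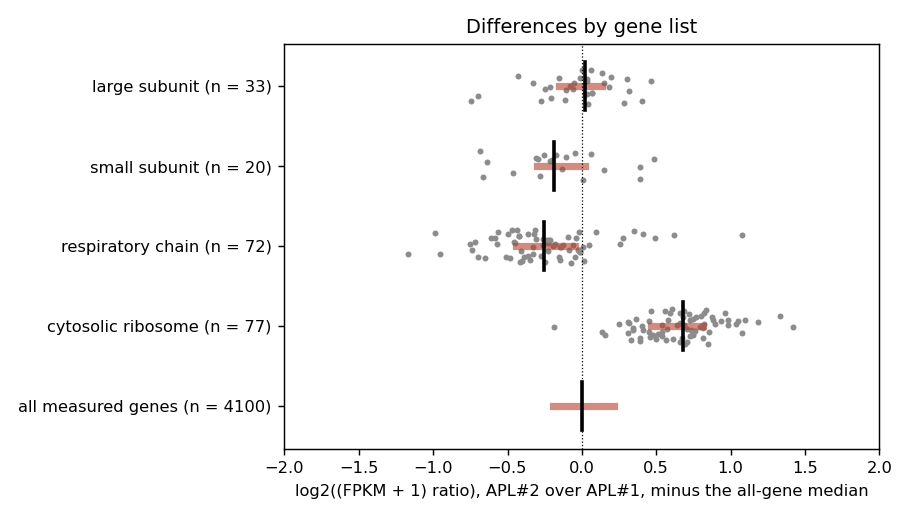
Relative log2 difference (horizontal axis, APL#2 over APL#1) of measured genes in 5 sets, with points for genes, thick bars for the interquartile range and vertical ticks for the median. The medians are 0.02 for the large subunit, -0.19 for the small subunit, -0.25 for the respiratory chain and 0.68 for the cytosolic ribosome, whose gene Rps27 lies outside the axis at -3.45.

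Markers of the cells differed between the libraries as well. All 6 genes listed as promyelocyte and granulocyte markers were measured in these CD45.2+ cells, and relative to the all-gene median 3 lay below and 3 above. Among the 6 is Ptprc, which encodes CD45, the protein used to purify the cells, so its detection does not mark this stage. Elane (5.01 FPKM in APL#2, 32.4 FPKM in APL#1), Mpo (157.3 FPKM in APL#2, 661.8 FPKM in APL#1) and Prtn3 (2.45 FPKM in APL#2, 3.45 FPKM in APL#1) lay below it. Ms4a3 (15.9 FPKM in APL#2, 7.85 FPKM in APL#1) and Ctsg (8.99 FPKM in APL#2, 7.89 FPKM in APL#1) lay above it. Ptprc was close to it with a relative difference of 0.02 (4.10 FPKM in APL#2, 4.66 FPKM in APL#1). The 4 B cell markers summed to 0.323 FPKM in APL#2 and 0.161 FPKM in APL#1, the 4 T cell markers to 0.181 FPKM in APL#2 and 0.0526 FPKM in APL#1, the 2 NK cell markers to 0 FPKM in APL#2 and 0.00723 FPKM in APL#1, and the 4 erythroid markers to 0.0243 FPKM in APL#2 and 0.0472 FPKM in APL#1. Lists for platelets and megakaryocytes summed to 3.95 FPKM in APL#2 and 2.34 FPKM in APL#1, for macrophages to 8.17 FPKM in APL#2 and 4.09 FPKM in APL#1, and for stroma and endothelium to 2.73 FPKM in APL#2 and 4.94 FPKM in APL#1. Itga2b (3.95 FPKM in APL#2, 2.34 FPKM in APL#1) was the whole of the platelet and megakaryocyte sum, since Pf4 and Gp9 were listed at 0 in both libraries; Vcam1 (7.47 FPKM in APL#2, 3.94 FPKM in APL#1) was most of the macrophage sum, and Pecam1 (1.62 FPKM in APL#2, 3.62 FPKM in APL#1) most of the last. The other macrophage markers were not measured. Emr1 had 0.537 FPKM in APL#2 and 0.0230 FPKM in APL#1, Csf1r had 0.101 FPKM in APL#2 and 0.0667 FPKM in APL#1. C1qa had 0.0552 FPKM in APL#2 and 0.0597 FPKM in APL#1. The NK cell marker Ncr1 was at 0 in both libraries. The part of granule stage or of these other cells in the values of the mitochondrial ribosomal protein genes was not tested.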

How the data were processed

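RNA sequencing of 2 libraries, 1 per leukaemia, was analysed from the gene table deposited by the authors. Its 2 value columns were read as FPKM as deposited, from their Cuffdiff-like layout, since the header names no unit. The p-value and q-value per gene are the authors' own, per the file headers. The submitters' processing notes list Cuffdiff, Cufflinks, TopHat2 2.0.10 and the build mm9 without saying what each was used for. The sources used here give neither annotation nor filters, strand or normalization setting. Without a stated strand, reads of the 9 members whose locus overlaps another listed gene (Mrpl19, Mrpl24, Mrpl41, Mrpl48, Mrpl49, Mrpl53, Mrps25, Mrps27, Mrps6) cannot be told apart from that gene's, and Mrps36, Mrpl23 and Mrpl48 have named pseudogenes that could take or give reads.

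Differences used log2(FPKM + 1), a pseudocount of 1, a mean of at least 1 FPKM, and subtraction of the median over measured genes (Python 3.11.15, pandas 2.3.3, numpy 2.4.6). The calculation was run on simulated data with planted changes larger than that of any measured member. That check does not cover differences of the size seen here. Alternatives were a pseudocount of 0.1, a minimum of 5 FPKM, no filter, no centring, and leaving out the stretches of chromosomes 2, 6 and 19. Samples were grouped by the leukaemia named in their descriptions. Depth was estimated from 3168 low genes, whose values step by whole fragments, and 23 single-transcript genes; it covers counting error only. Transcript lengths were medians over GENCODE transcripts linked to RefSeq mRNAs. The FPKM table was made on mm9, while promoter windows and distances between starts are on GRCm38.p6, so no position was carried between them.

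Named members were those at least 2-fold different, the 8 highest and 8 lowest differences, the 6 highest levels, measured members of the stretches, the Mrps18 paralogues and the 3 lowest deposited p-values; of related lists, the highest, the lowest and any at least 2-fold different. Other names were chosen after their values were seen. Members and lists were chosen with earlier results of these data known.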

Additional observations from a re-analysis of the deposited data

How the results depend on the processing

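The median relative difference of the measured members stayed negative under every alternative that kept the centring, between -0.14 (pseudocount of 0.1) and -0.01 (minimum of 5 FPKM, 6 members). With no filter it was -0.11 over 76 members, but relative to the median of 12226 genes above 0 in both libraries. That reference lowers every gene by the same amount, so the sign with no filter is not a like comparison. Without centring the members' median was -0.23, but that value still holds the all-gene median of -0.17 and is not a relative difference. The small-subunit median stayed negative too, between -0.29 and -0.11 with centring and at -0.36 without it. The gap of small minus large lay between -0.32 and -0.12, and centring cannot change it. The number of members above the all-gene median was 24, and it was 21 of 76 with no filter, where that other reference applies. With no centring the count was 10 of 54, which is the number with the higher FPKM in APL#2. With a pseudocount of 0.1, 5 members were at least 2-fold lower in APL#2 (Mrpl14, Mrpl27, Mrps18c, Mrps26 and Mrps5), where 6.15% of measured genes were, because the smaller pseudocount shrinks low genes less; none was higher. Single genes changed sign in 14 cases with no centring, which moves every gene by the same amount. They changed sign in 11 cases with no filter, where the change of reference also moves every gene by the same amount. Signs changed in 3 cases with a pseudocount of 0.1 and in 1 without the stretches. No paired analysis was possible because each leukaemia has 1 library, and for the same reason no replicate could be left out. Depth limits members near 1 FPKM most, and leukaemia, recipient, cell dose and library cannot be told apart.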

Other observations

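Around Mrpl47, on chromosome 3, several neighbouring genes were lower in APL#2, in a region chosen after its values were seen. Mrpl47 starts 308 bases from Ndufb5, a gene for a subunit of respiratory complex I, on the opposite strand. Ndufb5 had 0.956 FPKM in APL#2 and 2.68 FPKM in APL#1. Actl6a, a chromatin remodelling subunit gene on the other side of Mrpl47, had 0.284 FPKM in APL#2 and 1.02 FPKM in APL#1. The measured genes next along the chromosome were Gpr160 (0.634 FPKM in APL#2, 1.51 FPKM in APL#1), Sec62, for a protein translocation factor (0.597 FPKM in APL#2, 1.59 FPKM in APL#1), and Fxr1 (0.738 FPKM in APL#2, 1.28 FPKM in APL#1). Further along, Atp11b (2.05 FPKM in APL#2, 2.54 FPKM in APL#1), Anxa5 (2.25 FPKM in APL#2, 2.60 FPKM in APL#1) and Ccna2 (1.13 FPKM in APL#2, 1.60 FPKM in APL#1) lay near the all-gene median, at relative differences of -0.04, 0.02 and -0.11. Lower FPKM in APL#2 is also what 71.6% of measured genes showed. Rpl22l1, further off, went the other way, with 4.25 FPKM in APL#2 and 2.40 FPKM in APL#1. Differences in this region were not tested.

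Close to Mrpl27, on chromosome 11, Lrrc59 (1.89 FPKM in APL#2, 3.53 FPKM in APL#1) and Eme1 were both lower in APL#2 as well; they were chosen after their values were seen.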
